A study of Saccharomyces cerevisiae with 6 samples.

Results

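The large subunit of the cytosolic ribosome of budding yeast, Saccharomyces cerevisiae, is built from RPL proteins and the acidic stalk proteins RPP0, RPP1A, RPP1B, RPP2A and RPP2B. Probe sets were taken as members where every annotated symbol was RPL or RPP followed by a number and an optional A or B, which gave 72 of the 6776 probe sets of the arrays. One of the 72, RPP1, is a match in name only, because RPP1 encodes a subunit of the RNA-processing enzyme RNase P and not of the ribosome. It is given apart, and the counts below run over the other 71 probe sets, which read 79 large-subunit genes. Of the 71, 45 name 1 gene and 26 name both copies of a duplicated gene and cannot tell the copies apart.

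RNA was measured in strain MDC1, with wild-type TRA1, and in strain MDC3, with the temperature-sensitive allele tra1-2ts. Both are MATa, carry ura3-52, lys2-801, ade2-101 and the deletions trp1∆63, his3∆200 and leu2∆1, have the chromosomal TRA1 disrupted by HIS3, and live on a centromeric LEU2 plasmid that holds TRA1 or tra1-2ts. Cells were grown in YPD at 30 °C and moved to 37 °C, and 1 array per strain was hybridized at 60, 90 and 120 min, which makes 3 arrays per strain and 6 in all. The times serve as replicates, so change over time is part of the error. Whether the arrays of a strain are separate cultures is not labelled, and p-values then cover only the spread of these arrays, which may be technical. Cells at 30 °C were not analysed here.

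Most yeast ribosomal protein genes exist as an A and a B copy that encode the same or nearly the same protein. They are transcribed at high rates in growing cells by the factors Rap1, Fhl1, Ifh1 and Sfp1 and are turned down together in stress through the TOR and protein kinase A pathways. Tra1 is a subunit of SAGA and NuA4, the coactivator complexes that acetylate histones, and NuA4 is known to occupy ribosomal protein genes.

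All signals below are log2 values after RMA, the robust multi-array average, which makes the distributions of the 6 arrays alike, so that a general change in mRNA cannot be seen. In these total RNA samples, fewer cells that express a gene and less of its RNA per cell cannot be told apart. The array medians ran from 6.14 to 6.20, and pairs of arrays correlated at r = 0.992 to 0.996 within a strain and 0.971 to 0.980 across strains. TRA1 mRNA was 1.90-fold higher in tra1-2ts, and its probe set does not tell the alleles apart. As a look at the labelled mating type, strain means of the 6 a-specific genes measured ran from 4.78 to 12.96 and those of the 4 alpha-specific genes from 3.50 to 6.72, a range that overlaps and compares different probe sets. All 6 a-specific genes and 2 of the 4 alpha-specific genes, SAG1 and MF(ALPHA)1, were higher in tra1-2ts.

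Large-subunit genes were lower in tra1-2ts. Of the 71 probe sets 48 fell, 1 rose and 22 did not pass the test (limma, Benjamini-Hochberg adjusted p under 0.05 over all 5851 probe sets that name a gene). Among all 5851, 41% changed: 22.2% fell and 18.9% rose. The median difference of the 71 was -0.46, or 1.38-fold lower, with a middle range from -0.68 to -0.20, against a median of 0.01 over all probe sets. The 3 tra1-2ts arrays lay below all 3 wild-type arrays for 53 of the 71 probe sets and above them for 1, against 27.4% and 26.8% of all probe sets. The falls among the 48 ran from 1.20-fold to 2.64-fold, and 5 of them reached 2-fold. With both 90 min arrays left out, 24 of the 71 still fell, all of them among the 48, with a median of -0.43. Without both 60 min arrays 42 fell, and without both 120 min arrays 39, again all among the 48. These fits have fewer arrays, and the share of all probe sets that passed in them is not given here. The level of a probe set and its difference were hardly related across the 71 (Pearson's r = 0.04, Spearman's rho = 0.13, across probe sets that share the same arrays).

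**Figure D1:**
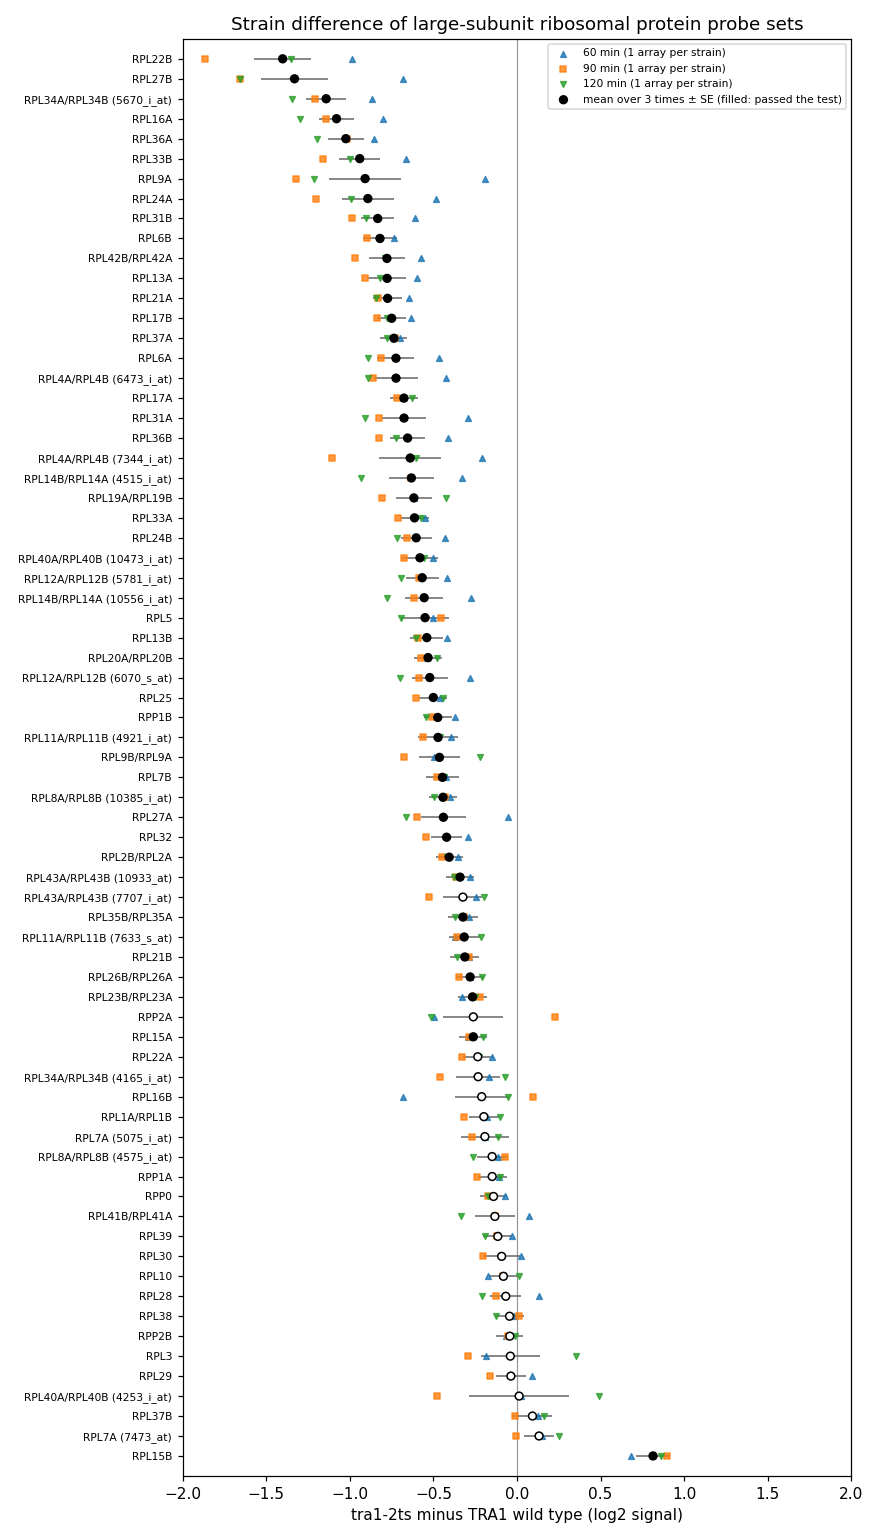
Strain difference of each of the 71 large-subunit probe sets, tra1-2ts minus TRA1 wild type in log2 signal, ordered from the largest fall at the top. Triangles and squares are the differences at 60, 90 and 120 min (1 array per strain), circles the mean with limma's standard error, filled where the test was passed; 48 filled circles lie left of 0 and 1, RPL15B, lies right of it.

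The largest fall was that of RPL22B, the minor copy of a gene pair whose protein is known to act back on the splicing of RPL22B RNA. Its signal in wild type was 8.80, 9.22 and 8.70 at 60, 90 and 120 min, and 7.82, 7.35 and 7.35 in tra1-2ts. All 3 mutant arrays thus lay well below the wild-type ones, and the difference was -1.40 ± 0.17 (SE; 2.64-fold lower, limma adjusted p = 0.00047). RPL27B, a copy of the gene for the protein eL27, read 10.57, 11.32 and 11.00 in wild type and 9.90, 9.66 and 9.34 in the mutant. The gap was narrowest at 60 min and the groups did not overlap (2.52-fold lower, limma adjusted p = 0.00119).

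A probe set for both copies of RPL34 read 12.43, 12.80 and 12.76 in wild type and 11.56, 11.60 and 11.41 in tra1-2ts, a fall of 2.21-fold (limma adjusted p = 0.000246). RPL16A, which encodes the yeast form of L13a, fell from 12.13, 12.28 and 12.39 to 11.33, 11.14 and 11.09, or 2.11-fold, with the smallest adjusted p of the members (limma, 0.000193). For RPL36A the wild-type values were 12.89, 13.04 and 13.27 and the mutant values 12.03, 12.02 and 12.07 (2.03-fold lower, limma adjusted p = 0.00027). These 3 probe sets had mutant arrays within 0.3 log2 units of each other and more than 0.7 below the lowest wild-type array.

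RPL33B (1.92-fold lower), RPL9A (1.88-fold), RPL24A (1.86-fold), RPL31B (1.78-fold) and RPL6B (1.77-fold) complete the 10 largest falls. The proteins of RPL24 lie at the interface with the small subunit, where they form a bridge. RPL9A stood apart in its spread: wild type read 7.73 at 60 min but 8.63 and 8.48 later, against 7.54, 7.31 and 7.26 in tra1-2ts. The strains were therefore close at 60 min and 1.32 and 1.21 log2 units apart afterwards (adjusted p of the strain difference 0.0096, limma). RPP1, the RNase P gene set apart above, also fell, from a mean of 8.03 to 7.15 (1.84-fold, limma adjusted p = 0.00227).

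**Figure D2:**
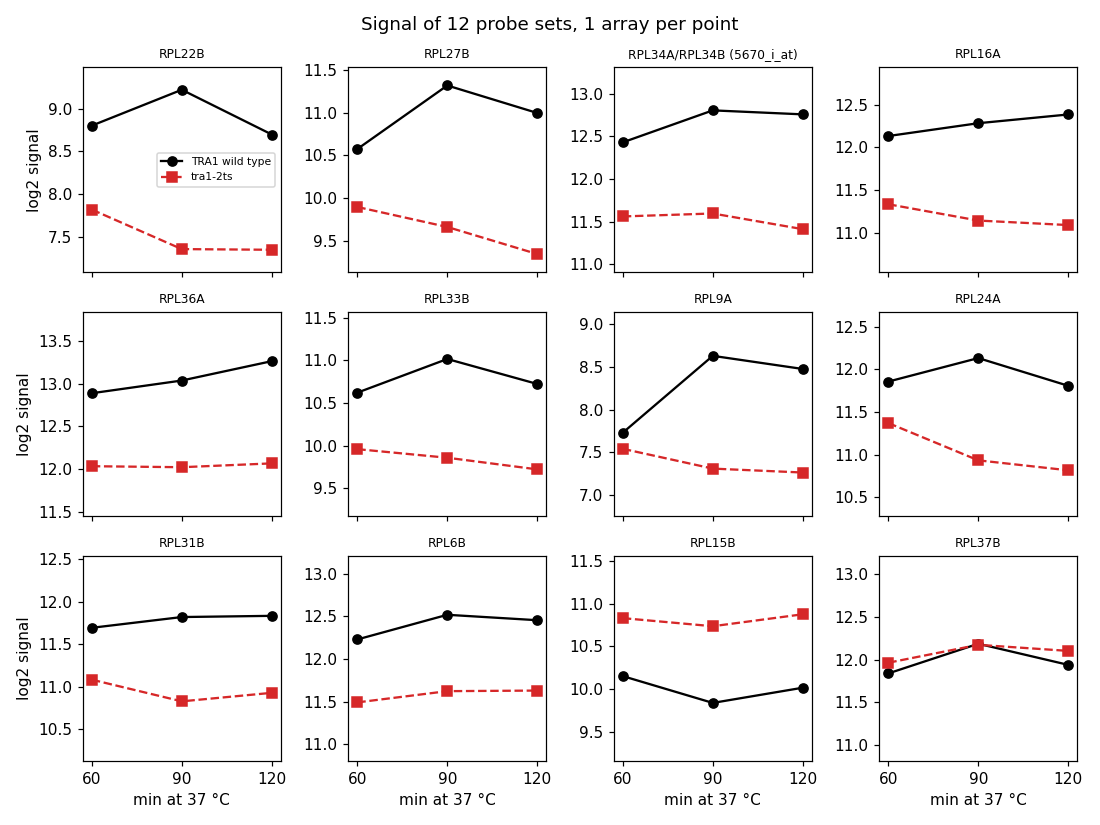
Signal (log2, y axis) at 60, 90 and 120 min at 37 °C (x axis) of the 10 probe sets with the largest falls and of RPL15B and RPL37B, with 1 array per point, wild type as circles and tra1-2ts as squares; every panel spans the same range of 2.4 log2 units. The mutant lies below wild type in the first 10 panels, above it for RPL15B, and on it for RPL37B.

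RPL15B was the only member that rose. Its gene encodes 1 copy of the protein eL15. The signal was 10.15, 9.84 and 10.02 in wild type and 10.83, 10.74 and 10.88 in tra1-2ts, without overlap, a rise of 0.81 ± 0.10 (SE; 1.76-fold, limma adjusted p = 0.000595). It kept its call without any 1 of the 6 arrays. Its partner RPL15A fell slightly, from 10.75, 10.84 and 10.76 to 10.46, 10.55 and 10.56 (1.20-fold, limma adjusted p = 0.0353). That call was lost when any 1 array was left out except the 60 min wild-type array, with adjusted p up to 0.0990.

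Most of the remaining duplicated members fell too, by up to 1.71-fold. The shared probe set of RPL42A and RPL42B, whose protein lies at the exit site for tRNA, fell from 10.26, 10.52 and 10.27 to 9.69, 9.55 and 9.48 (1.71-fold, limma adjusted p = 0.0008). RPL21A, which sits near the 5S particle, fell from 13.39, 13.52 and 13.52 to 12.74, 12.69 and 12.67 (1.71-fold), and RPL13A by the same factor from 11.36, 11.67 and 11.38 to 10.76, 10.76 and 10.56. All 3 had mutant arrays clear of the wild-type ones. RPL6A fell 1.65-fold, RPL36B 1.57-fold, RPL33A 1.53-fold, RPL24B 1.52-fold and RPL13B 1.45-fold, each with a partner copy that fell too.

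The probe set for both copies of RPL2, whose protein touches the peptidyl transferase centre, read 13.61, 13.68 and 13.63 in wild type and 13.26, 13.23 and 13.21 in tra1-2ts, a fall of 1.33-fold (limma adjusted p = 0.00433). RPL20 fell 1.45-fold, RPL7B 1.36-fold and the probe set shared by RPL9A and RPL9B 1.38-fold. RPL23 fell least of these, from 12.07, 12.13 and 12.15 to 11.74, 11.91 and 11.90 (1.20-fold, limma adjusted p = 0.0405). The RPL23 call was lost without any 1 array but the 60 min wild-type one (adjusted p up to 0.121), that of RPL21B (1.24-fold) without the 120 min wild-type or the 90 min tra1-2ts array (up to 0.0895), and that of the shared RPL9 probe set without the 90 min tra1-2ts array (0.0504). RPL1, which forms the mobile L1 stalk, did not pass at -0.20 ± 0.09, although its arrays of 12.46, 12.56 and 12.34 in wild type and 12.29, 12.24 and 12.24 in the mutant did not overlap.

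Of the 11 members with a single gene copy, each read by a probe set of its own, 3 (27.3%) fell and 0 rose, with a median of -0.09. The share that fell is near the 22.2% of all probe sets, of which 18.9% rose. Of the 60 probe sets for duplicated genes 45 (75%) fell and 1 rose, with a median of -0.53. Whether the classes differ was not tested. RPL5, whose protein carries 5S rRNA into the ribosome, fell from 12.60, 12.49 and 12.30 to 12.10, 12.03 and 11.61 (1.46-fold, limma adjusted p = 0.0153). RPL25, whose protein sits at the mouth of the exit tunnel and binds the nascent chain factors there, fell from 10.59, 10.66 and 10.54 to 10.13, 10.06 and 10.10 (1.41-fold, limma adjusted p = 0.00195). RPL32 fell 1.34-fold (limma adjusted p = 0.00785), and in none of the 3 did the strains overlap.

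The other 8 single-copy genes did not pass, with differences from -0.14 to -0.04. RPL10, whose protein joins the pre-60S particle late in the cytoplasm, read 12.88, 12.87 and 12.80 in wild type and 12.71, 12.79 and 12.81 in tra1-2ts, a difference of -0.08 ± 0.08 (SE). RPL28, the gene in which cycloheximide resistance arises, had 11.26, 11.43 and 11.44 against 11.39, 11.31 and 11.23, so the arrays of the strains were interleaved. RPL30, whose protein binds its own transcript and blocks its splicing, differed by -0.09 ± 0.11.

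RPL3, which reaches into the peptidyl transferase centre, rested on 1 array. Wild type read 11.59 and 11.57 at 60 and 90 min but 10.90 at 120 min, against 11.40, 11.28 and 11.25 in the mutant. Its difference of -0.04 ± 0.18 covers -0.18 at 60 min, -0.29 at 90 min and 0.36 at 120 min. RPL29 and RPL38, both dispensable for growth, differed by -0.04 each, and RPL39, which lines the exit tunnel, by -0.11.

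**Figure D3:**
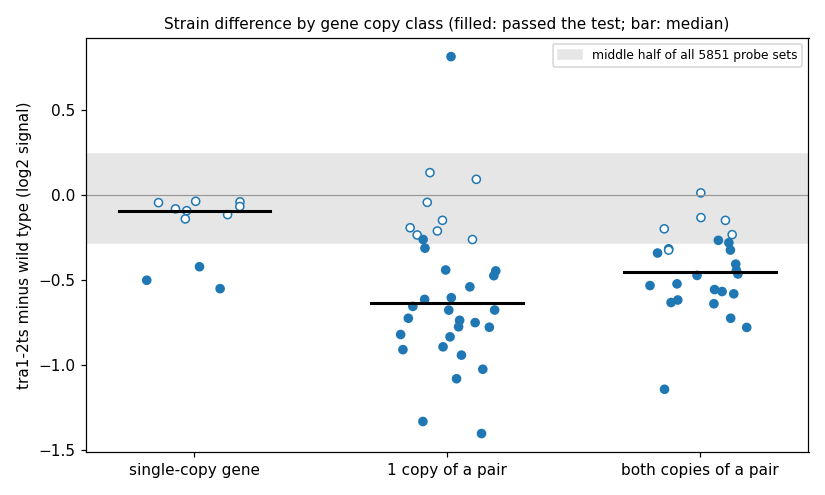
Strain difference (log2 signal, y axis) of the 71 probe sets by gene copy class (x axis): 11 for single-copy genes, 34 for 1 copy of a pair and 26 that read both copies. Filled points passed the test, bars are medians (-0.09, -0.64 and -0.46), and the grey band is the middle range of all 5851 probe sets, from -0.28 to 0.24.

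The kind of probe set moved with this split. All 11 single-copy genes are read by probe sets with the plain suffix _at, while 37 of the 60 probe sets for duplicated genes carry _s_at, _f_at or _i_at, suffixes that mark sets shared with related sequences or incomplete. Over the 34 plain _at members 18 fell and 1 rose, with a median of -0.29, and over the other 37, 30 fell and 0 rose, with a median of -0.53. Among the 23 plain _at probe sets for duplicated genes 15 fell and 1 rose, with a median of -0.47, beside -0.09 for the 11 single-copy genes. How far the kind of probe set enters the split by copy class was not tested. Over all 5385 plain _at probe sets the median was -0.01 and 22.4% fell. Over all 466 with another suffix it was 0.25, with 19.3% lower and 39.3% higher.

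Of the roles with more than 2 probe sets, the stalk had the median nearest to 0, at -0.26. As a measure for the counts by role, 67.6% of the 71 members and 22.2% of all probe sets fell. The stalk is the flexible arm of acidic P proteins on RPP0 and Rpl12 that recruits and activates the translation GTPases. Of its 7 probe sets 3 fell: RPP1B from 13.48, 13.55 and 13.62 to 13.10, 13.04 and 13.07 (1.39-fold, limma adjusted p = 0.00264), and both probe sets for RPL12A and RPL12B together, 1.48- and 1.44-fold. RPP0, the anchor of the stalk, read 13.08, 13.14 and 13.12 in wild type and 13.00, 12.97 and 12.95 in the mutant. The strains did not overlap, but the difference of -0.14 ± 0.08 did not pass (limma adjusted p = 0.194). RPP2B differed by -0.04, RPP1A by -0.15 and RPP2A by -0.26, and the last had an uneven wild type of 12.08, 11.33 and 11.87. Without the 90 min wild-type array RPP2A passed, at -0.48 (limma adjusted p = 0.0195).

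The 5S particle joins Rpl5 and Rpl11 with 5S rRNA, and all 3 of its probe sets fell, RPL5 as above and those for both RPL11 copies 1.39- and 1.24-fold. At the rim of the exit tunnel, where nascent chains leave the ribosome, 8 of 9 probe sets fell, with a median of -0.62. RPL39 was the exception. Over the 71 members 67.6% fell, and over all probe sets 22.2%. Most tunnel probe sets carry _s_at, _f_at or _i_at, while most stalk probe sets are plain _at. How far the kind of probe set enters the split by role was not tested. RPL31B fell from 11.69, 11.82 and 11.83 to 11.08, 10.83 and 10.93. RPL17B differed by -0.75, RPL17A and RPL31A by -0.68 each, and the probe set for both RPL19 copies by -0.62. The shared probe sets of RPL35 and RPL26 fell less, 1.25- and 1.21-fold, with no overlap of the strains. The RPL35 call was lost without the 90 min wild-type, the 60 min or the 120 min tra1-2ts array (limma adjusted p up to 0.0583). That of RPL26 was lost without the 60 or 90 min wild-type or the 90 or 120 min tra1-2ts array (up to 0.104), and that of the lesser RPL11 probe set without any 1 array but the 120 min wild-type one (up to 0.0804).

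RPL40A and RPL40B encode ubiquitin fused to a ribosomal protein, and their probe sets disagreed. One read 9.55, 9.75 and 9.45 in wild type and 9.05, 9.07 and 8.89 in tra1-2ts (1.50-fold lower, limma adjusted p = 0.00292). The other read 10.96, 11.21 and 9.93 against 10.99, 10.73 and 10.42, where the 120 min wild-type array was lowest of all, and differed by 0.01 ± 0.30. Without that array the second probe set stood at -0.37 and still did not pass (limma adjusted p = 0.122).

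In 9 cases 2 probe sets carried the same gene or gene pair, and the call was alike in 5 of them and not in 4. RPL9A is in addition read by its own probe set and by the one shared with RPL9B, and both fell. RPL34 was the widest apart: the second probe set, at 12.18, 12.37 and 11.88 in wild type and 12.01, 11.91 and 11.81 in tra1-2ts, gave -0.23 against -1.14. RPL8 gave -0.44 and -0.15, and RPL43 gave -0.34 and -0.32 with only the first past the test; the adjusted p values were 0.0111 and 0.0542 (limma). Without the 120 min wild-type array the second probe sets of RPL34 and RPL43 passed as well (limma adjusted p = 0.0361 and 0.0182), and without the 90 min tra1-2ts array the first of RPL43 did not (0.0505). RPL4, RPL11, RPL12 and RPL14 fell by both of their probe sets, with the dimmer RPL4 set losing its call without the 60 or 90 min wild-type or the 90 or 120 min tra1-2ts array (limma adjusted p up to 0.0671). RPL7A did not pass by either, and of its probe sets one read only 5.02 in wild type and 5.15 in tra1-2ts. The shared probe set of RPL41A and RPL41B, which encode a very short basic peptide, read 4.92 and 4.79, and its difference of -0.13 ± 0.12 did not pass.

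The A and B copies could be compared where each has a probe set that names it alone, which held for 16 large-subunit pairs among 29 A/B pairs on the whole array. In RPL27, RPL36, RPL33, RPL7, RPL31 and RPL17 at least 1 copy is read by an _i_at or _f_at probe set. Signal from the partner copy was not tested there. The other 10 pairs are read by plain _at probe sets alone. For each array the signal of B was taken from that of A, and the change of this A minus B value between strains was tested with limma, adjusted over all 29 pairs. It changed in 9 of the 16 large-subunit pairs, with the A copy lower relative to B in tra1-2ts in 5 and higher in 4; over all 29 pairs 65.5% changed, and the other 13 pairs are mostly small-subunit genes. Both copies fell in 9 of the 16 pairs, 1 copy alone in 6 and neither in RPP2. Probe sets differ in how steeply they follow RNA, which was not measured here and enters every such contrast.

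The widest change was that of RPL22. RPL22A read 12.76, 12.89 and 12.91 in wild type and 12.61, 12.56 and 12.68 in tra1-2ts, and its difference of -0.23 ± 0.09 did not pass (limma adjusted p = 0.0625; 0.0449 without the 60 min wild-type array), beside the 2.64-fold fall of RPL22B. A minus B was 3.94 ± 0.27 in the wild-type strain and 5.11 ± 0.29 in the mutant (SD, n = 3), a change of 1.17 ± 0.18 (SE, limma adjusted p = 0.00093). In RPL27 too the B copy fell more: A minus B went from -0.69 ± 0.22 to 0.20 ± 0.05 (limma adjusted p = 0.00093). RPL27A itself fell 1.36-fold (limma adjusted p = 0.029), a call lost without the 90 or the 120 min array of either strain (adjusted p up to 0.0939).

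In RPL15, RPL37 and RPL16 the A copy was lower relative to B in tra1-2ts than in wild type. For RPL15 A minus B turned from 0.78 ± 0.20 to -0.29 ± 0.09 (SD, n = 3; limma adjusted p = 0.000404), since the copies moved in opposite directions. RPL37A fell from 12.93, 12.92 and 12.99 to 12.23, 12.19 and 12.22 (1.67-fold), while RPL37B read 11.84, 12.19 and 11.94 in wild type and 11.96, 12.17 and 12.10 in the mutant. A minus B of RPL37 dropped by 0.83 ± 0.13 (SE, limma adjusted p = 0.00093).

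RPL16B read 11.93, 11.32 and 11.34 in wild type and 11.25, 11.42 and 11.29 in tra1-2ts, so that the 60 min wild-type array alone stood out. Its difference was -0.21 ± 0.16 and it did not pass, against the 2.11-fold fall of RPL16A. The change of A minus B, -0.87 ± 0.22 (limma adjusted p = 0.00916), was not called without the 90 min wild-type array (adjusted p = 0.0533).

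Smaller changes were found in RPL21 (-0.46 ± 0.09), RPL36 (-0.37 ± 0.09), RPL33 (0.33 ± 0.13) and RPP1A/RPP1B (0.33 ± 0.09). The RPL33 call was lost without the 90 or the 120 min array of either strain, and that of RPP1A/RPP1B without the 90 min tra1-2ts array, with adjusted p up to 0.152 and 0.0739 (limma). In RPL17, RPL6 and RPL31 the signals of the copies moved most alike, with changes of A minus B of 0.07 ± 0.10, 0.10 ± 0.10 and 0.16 ± 0.10, none of which passed. RPL17 and RPL31 are read by _f_at or _i_at probe sets, so shared signal and copies that moved alike cannot be told apart. An exact permutation test over the 6 arrays cannot give a p under 0.10 for a single pair; 10 of the 16 pairs reached that value, the 9 called pairs and RPL13. In 4 pairs that were not called, leaving out 1 array gave a call: RPL13 without the 120 min and RPP2 without the 90 min wild-type array (limma adjusted p = 0.0393 and 0.022), and RPL24 and RPL7 without the 60 min tra1-2ts array (0.0253 and 0.0406).

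**Figure D4:**
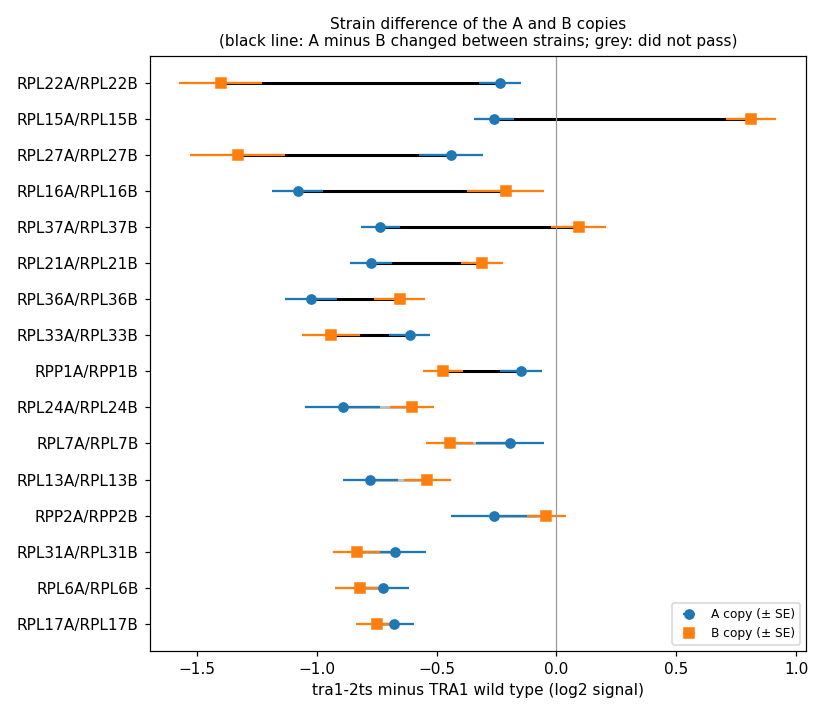
Strain difference (log2 signal, x axis, with limma's standard error) of the A copy (circles) and the B copy (squares) of the 16 pairs whose copies have separate probe sets. Black lines join the 9 pairs in which A minus B changed between strains, with RPL22 and RPL15 the widest; in the 7 pairs with grey lines it changed by 0.07 to 0.29 and did not pass.

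Over time at 37 °C, no member passed a test. With a slope shared by both strains, 0 of the 71 probe sets passed (limma, smallest adjusted p = 0.166) and 4 (5.63%) had an unadjusted p under 0.05; of all probe sets 15.7% did, and 0.188% passed after adjustment. RPL5 had the smallest p, with -0.39 ± 0.11 per 60 min, followed by the second RPL40 probe set at -0.80 ± 0.26 and an RPL11 probe set at 0.28 ± 0.11. With time as a factor also 0 passed, and 3 had an unadjusted p under 0.05. Of all 5851 probe sets 1 passed and 668 had an unadjusted p under 0.05.

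The median signal of the members, taken from each probe set's wild-type mean, was -0.06, 0.07 and 0.00 in wild type at 60, 90 and 120 min. In tra1-2ts it was -0.40, -0.43 and -0.49. The median strain difference was -0.35 at 60 min, -0.54 at 90 min and -0.46 at 120 min, with 63, 67 and 65 of the 71 probe sets lower in the mutant. Wild type was highest at 90 min, on 1 array, in 50 of the 71, against 2156 of all 5851 probe sets. The strain difference was least negative at 60 min in 45 of the 71 (63.4%), against 37.7% of all probe sets.

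A separate slope per strain gave no call for a difference of slopes: 0 of 71 passed (limma, smallest adjusted p = 0.689), and 6 (8.45%) had an unadjusted p under 0.05, against 6.97% of all probe sets. In all 6, which were picked by this difference, the fitted slope was above 0 in wild type, at 0.14 to 0.75 per 60 min. It was below 0 in tra1-2ts, at -0.55 to -0.24. These 2 signs were found together in 29 of the 71 members and in 1249 of all 5851 probe sets. The slope differences with the smallest p were those of RPL31A (-0.62 ± 0.21 per 60 min), RPL9A (-1.03 ± 0.39) and RPL16A (-0.50 ± 0.19). This fit leaves 2 residual degrees of freedom. With 1 wild-type array left out it leaves 1, and then 1 to 3 members passed: the second RPL40 probe set without the 60 min array (limma adjusted p = 0.00869), RPL9A and RPL27B without the 90 min array (0.0345 and 0.0356), and RPL9A, RPL27B and RPP2A without the 120 min array (0.00745, 0.00745 and 0.0484). Of all probe sets 1.30%, 1.04% and 2.61% passed in the same fits, and RPL40 (2.01) and RPP2A (1.28) had the opposite sign to RPL9A and RPL27B.

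**Figure D5:**
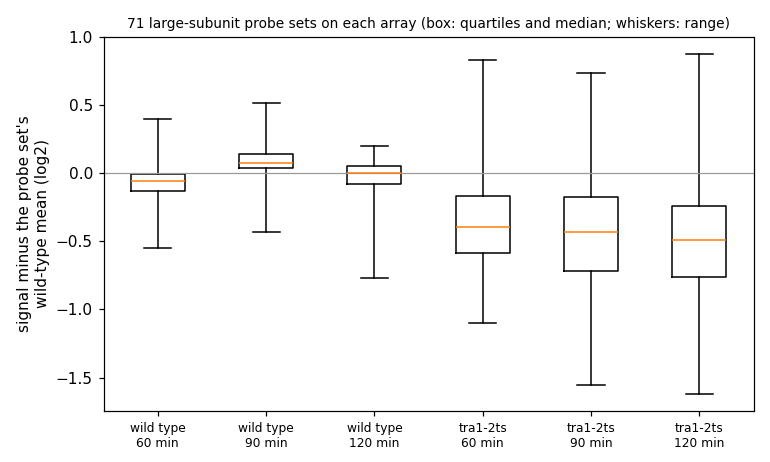
Signal of the 71 large-subunit probe sets on each array (x axis), as the difference from the probe set's own wild-type mean (log2, y axis); boxes give quartiles and median, whiskers the range. The medians are -0.06, 0.07 and 0.00 in wild type and -0.40, -0.43 and -0.49 in tra1-2ts.

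Small-subunit genes, read by 47 probe sets, had nearly the same values: 31 fell and 1 rose, with a median of -0.50 and single-time medians of -0.41, -0.55 and -0.58. Over the 15 plain _at sets among these, 7 fell and 1 rose, with a median of -0.26, beside -0.29 over the 34 plain _at large-subunit members. Among 10 regulators of ribosomal protein genes 3 fell and 1 rose, near the 22.2% and 18.9% of all probe sets. IFH1, the coactivator that Fhl1 brings to these promoters, fell from 6.36 ± 0.08 to 5.66 ± 0.11 (SD, n = 3; 1.63-fold, limma adjusted p = 0.0008). MRS6, a Rab escort protein that binds Sfp1, fell 1.96-fold, and SCH9, a kinase downstream of TOR, 1.40-fold. SFP1, a zinc-finger activator of these genes, rose from 5.83 ± 0.08 to 6.24 ± 0.16 (1.33-fold, limma adjusted p = 0.0144). RAP1, FHL1, HMO1, TBF1, CRF1 and ABF1 did not pass, with differences from -0.09 to 0.31; the means of FHL1 and CRF1 were under 3.9 in both strains.

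Dedicated factors escort single large-subunit proteins to the nucleus or onto the pre-ribosome. Of 9 genes for such factors 7 (77.8%) were lower and 0 higher, against 22.2% and 18.9% of all probe sets, and their median was -0.71. PUF6 and LOC1, which load Rpl43, fell 1.97- and 1.72-fold, while the RPL43 probe sets differed by -0.34 and -0.32. RRB1, the chaperone of Rpl3, fell from 7.76 ± 0.13 to 7.05 ± 0.07 (1.64-fold, limma adjusted p = 0.0008), and SQT1, that of Rpl10, fell 1.67-fold, while RPL3 and RPL10 themselves did not pass. MRT4, which holds the place of RPP0 on the pre-ribosome, fell 1.75-fold. SYO1, which imports Rpl5 with Rpl11, fell 1.63-fold and BCP1, the chaperone of Rpl23, 1.61-fold. YVH1, the phosphatase that releases Mrt4, and ACL4, the chaperone of Rpl4, differed by -0.28 and -0.21 and did not pass. Of 7 genes for methyltransferases of ribosomal proteins 2 (28.6%) fell, near the 22.2% of all probe sets. They were RKM4, 1.49-fold, and RKM3, 1.29-fold, and the rest differed by -0.21 to 0.20.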

How the data were processed

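Biotin-labelled total RNA of 6 samples was hybridized to arrays. The deposited values are log2 probe set signals, made by the authors with RMA and oligo, per the submitters' processing notes; versions and the selection of probe sets are not given in the sources used here. Symbols are those of the platform annotation. It gives 1 gene to 5668 of the 6776 probe sets, several to 183 and none to 925, and the symbols of all 5851 named sets equal those of the RefSeq gene table of assembly R64. No build is named for the array, so no coordinates are given. The table held 0 columns of other samples.

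Tests used limma 3.58.1 in R 4.3.3, two-sided, with Benjamini-Hochberg adjustment over the 5851 named probe sets and a threshold of 0.05. The strain fit had genotype alone and 4 residual degrees of freedom. Time fits added a linear slope, given per 60 min, or a slope per strain. Copies of a pair were compared by log2(A) minus log2(B) per array, fitted over all 29 A/B pairs with the brightest probe set per gene. Differences at single times have 1 array per strain and no test. The scripts were tested on simulated data. The number of arrays limits the precision.

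The members and the lists beside them were chosen with earlier results of these data known. All members could be named. Values by array are given for the only rise and for part of the 10 largest falls and of the called pairs. They are also given for part of the members nearest to no change or with the smallest p for time, and for some others. Array numbers in the titles mark the time. The time point as a block was an alternative, beside scaling, filters, moderation, left-out arrays and times.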

Additional observations from a re-analysis of the deposited data

How the results depend on the processing

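The count of 48 lower members was 36 to 50 under the block, covariate, scaling, moderation, dim-filter, all-probe-set and 0.01-threshold settings, and 39 to 46 without any 1 array. It was 42, 24 and 39 without both arrays of 60, 90 and 120 min. It was 28 of 44 with 1 probe set per gene and 18 of 34 over plain _at members, in both of which fewer members are counted; over the latter the median was -0.29. The median otherwise ran from -0.51 to -0.42, and RPL15B was the single rise in every setting. Arrays with one number share a time, but their deviations from the strain means correlated at 0.300, 0.0599 and 0.324 (60, 90 and 120 min); each of the 6 arrays correlated best with its own time in the other strain, a hint from the data; with time as a block 49 members fell and 9 pairs changed, and the second RPL43 probe set (limma adjusted p = 0.0333) and ABF1 (0.045) passed. Median centring moved the median of all differences from 0.01 to 0.05. Of the 49 calls 39 held without any 1 array. The count of 9 changed pairs ran from 7 to 11 without any 1 array, was 12 with linear time, 6 of 10 over plain _at pairs and 5 without both 120 min arrays; it was 0 under the exact permutation test, which cannot pass 0.05 with these 6 arrays. The shared slope gave 0 calls in every setting and the slope difference 0 to 3 without any 1 array, 1, 2 and 3 without the 60, 90 and 120 min wild-type array. No called member changed sign. Members near 0 did: with median centring RPL29 stood at 0.011, RPP2B at 0.0046, RPL3 at 0.0076 and RPL38 at 0.0029. Without any 1 array RPL3 ran from -0.27 to 0.077, RPL29 from -0.070 to 0.016, RPL38 from -0.074 to 0.0012 and the second RPL40A;RPL40B probe set from -0.37 to 0.27. Without both arrays of a time, RPL3 was 0.032 (60 min) and 0.086 (90 min), RPL16B 0.023, RPL29 0.024, RPL28 0.0027 and that RPL40A;RPL40B set -0.23. The slope difference of RPL9A ran from -2.08 to 0.030 without any 1 array. The causes were not tested. All 71 members read above the mean of the mouse control probe sets, 3.26.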
